A study of Mus musculus with 12 samples.

Results

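Heat shock proteins and J-domain proteins were followed across uninjured, scratched and TGF-β1-treated cultures of mouse cortical neurons. The members are protein-coding genes whose symbol names a J-domain protein of class A, B or C (Dnaja, Dnajb, Dnajc), a heat shock protein (Hsp90, Hspa, Hspb, Hspd, Hspe, Hsph, with their named binding partners) or a heat shock transcription factor (Hsf). Symbols starting with Hspg or Hspb11, and Hspa5, were left out. This rule used names and no measured value, and gave 79 of the 55901 genes in the table. Of these, 65 had a mean of at least 0.5 FPKM (fragments per kilobase of exon, scaled to the size of the library, a level per gene length) over the 12 libraries and were tested.

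Each group held 4 libraries of poly(A) RNA from cortical cells of newborn C57BL/6J mice, and all 3 groups received arabinosylcytosine early in culture, a blocker of DNA synthesis that limits glial growth. Control cultures were not injured. Trauma cultures were scratched and collected after 24 h, and Trauma+TGF-β1 cultures (labelled Tra_TGF) were scratched and kept with TGF-β1 at 10 ng/mL for 24 h. Comparing Trauma with Control asks what the scratch changed, and comparing Trauma+TGF-β1 with Trauma asks what the cytokine changed after it. Nothing in the labels says whether the 4 libraries of a group came from separate cultures or animals, so that p-values measure the spread between these libraries, which may be technical. In RNA from whole cultures, fewer cells of a type and less RNA per cell cannot be told apart.

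Chaperones keep other proteins folded. Members of the Hsp70 family bind unfolded segments in a cycle driven by ATP. J-domain proteins bring them their clients and speed up the hydrolysis, and exchange factors such as Hsp110 proteins release the nucleotide. Hsp90 acts late on signalling proteins, Hsp60 with Hsp10 forms a folding chamber in mitochondria, and small heat shock proteins hold unfolded proteins without ATP. Hsf1 is the transcription factor that switches on the inducible members when proteins misfold. Neurons are known for high constitutive Hspa8 and Hsp90 and for J-domain proteins at synaptic vesicles and coated vesicles.

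Reads assigned to genes numbered 15052486 to 17381671 per library. The markers of neurons, the labelled cells, were present throughout. The summed FPKM of 8 of them was 1356 to 1423 in Control, 1214 to 1292 in Trauma and 1145 to 1185 with TGF-β1. That of 7 astrocyte genes was 128 to 139, 171 to 213 and 195 to 214. Tubb3 made up most of the neuron sum, with means of 960, 842 and 739 FPKM in these groups. In the limma test described below, 1 of the 8 neuron markers was called higher and 2 lower in Trauma against Control. In Trauma+TGF-β1 against Trauma 2 were higher and 2 lower, and in Trauma+TGF-β1 against Control 3 were higher and 4 lower. The neuron sum thus does not stand for each marker. The first Control library stood apart from the other libraries on the second principal component of all tested genes (59.0, against 3.81 to 8.70 for the other Control libraries). On the first component it was at -12.1, with the other Control libraries at 25.3 to 30.0. Trauma lay there at 1.88 to 11.3 and Trauma+TGF-β1 at -31.8 to -16.9. Its share of mitochondrial reads, 2.97%, was inside the Trauma+TGF-β1 range (2.69% to 3.23%) and above the other Control libraries (2.12% to 2.36%). Calls of named members, and counts of calls, that change without it are given both ways. Markers and genes outside the members are given with all libraries only.

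Changes that passed the test were few and mostly small, with Hspb1 and Hspb6 apart from the rest in size. In Trauma, Hspb6 (a small heat shock protein) and Dnajc9 (a histone-binding J-domain protein) were upregulated against Control and no member was downregulated. With TGF-β1 after the scratch (Trauma+TGF-β1 against Trauma), Hspb1, Dnajc3, Dnajc13, Hspa8 and Hsp90b1 were upregulated, and Dnaja4, Hspbp1, Dnajb5 and Dnajb11 were downregulated. Against Control, the same Trauma+TGF-β1 libraries had Hspb1, Hspb6, Dnajc3, Dnajb9 and Hsp90b1 upregulated, and Dnajb2, Hspbp1 and Dnaja1 downregulated. Hspb1 and Hspb6 had the largest fold changes among these 14 genes, at 5.61-fold and 2.02-fold in Trauma+TGF-β1 against Control. The calls of the other genes lay between log2 fold changes of -0.47 and 0.45. Most of the 19 calls were lost in some of the 26 alternative analyses. Those of Dnajc9 and Dnajb2 were lost in 18 and 17 of them.

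Counted as genes past an adjusted p of 0.05 in limma, 2 of 65 members (3.08%) were called in Trauma against Control, where 5.82% of all 15016 genes tested were (3.5% higher and 2.32% lower). For Trauma+TGF-β1 against Trauma, 9 members (13.8%) were called, against 12.3% of all genes (4.64% higher and 7.63% lower). In Trauma+TGF-β1 against Control, 8 members (12.3%) were called, beside 16.3% of all genes (6.85% higher and 9.46% lower). Groups whose libraries did not overlap were found for 7 members in Trauma against Control (5 higher and 2 lower, beside 6.25% and 6.69% of all genes, 12.9% in all), for 15 in Trauma+TGF-β1 against Trauma (7 higher and 8 lower, beside 10.2% and 12.0%, 22.2% in all) and for 11 in Trauma+TGF-β1 against Control (5 higher and 6 lower, beside 7.94% and 10.6%, 18.5% in all). The shares of members called lie near or below those of all genes, and are no result about the chaperone genes as a set. The median log2 fold change of the 65 members was 0.017, -0.021 and 0.0081 in these comparisons, in this order, beside -0.0025, 0.0052 and 0.0031 over all genes tested. Without the first Control library the counts were 1, 13 and 15 members, beside 5.57%, 17.0% and 22.8% of all genes.

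Most members had small estimated changes. In Trauma against Control, 57 of 65 (87.7%) had an absolute log2 fold change under 0.2, as did 71.4% of all genes tested. In Trauma+TGF-β1 against Trauma the numbers were 42 (64.6%) and 64.0%, and in Trauma+TGF-β1 against Control 51 (78.5%) and 61.1%. The median half-width of the 95% interval of a log2 fold change was 0.094 for the 29 members with at least 10 FPKM and 0.24 for the 36 below, so that a small change was within reach for the abundant members and not for the rare ones. The plot of fold changes by family shows this as a column of short intervals around 0, with a few genes outside it.

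**Figure D1:**
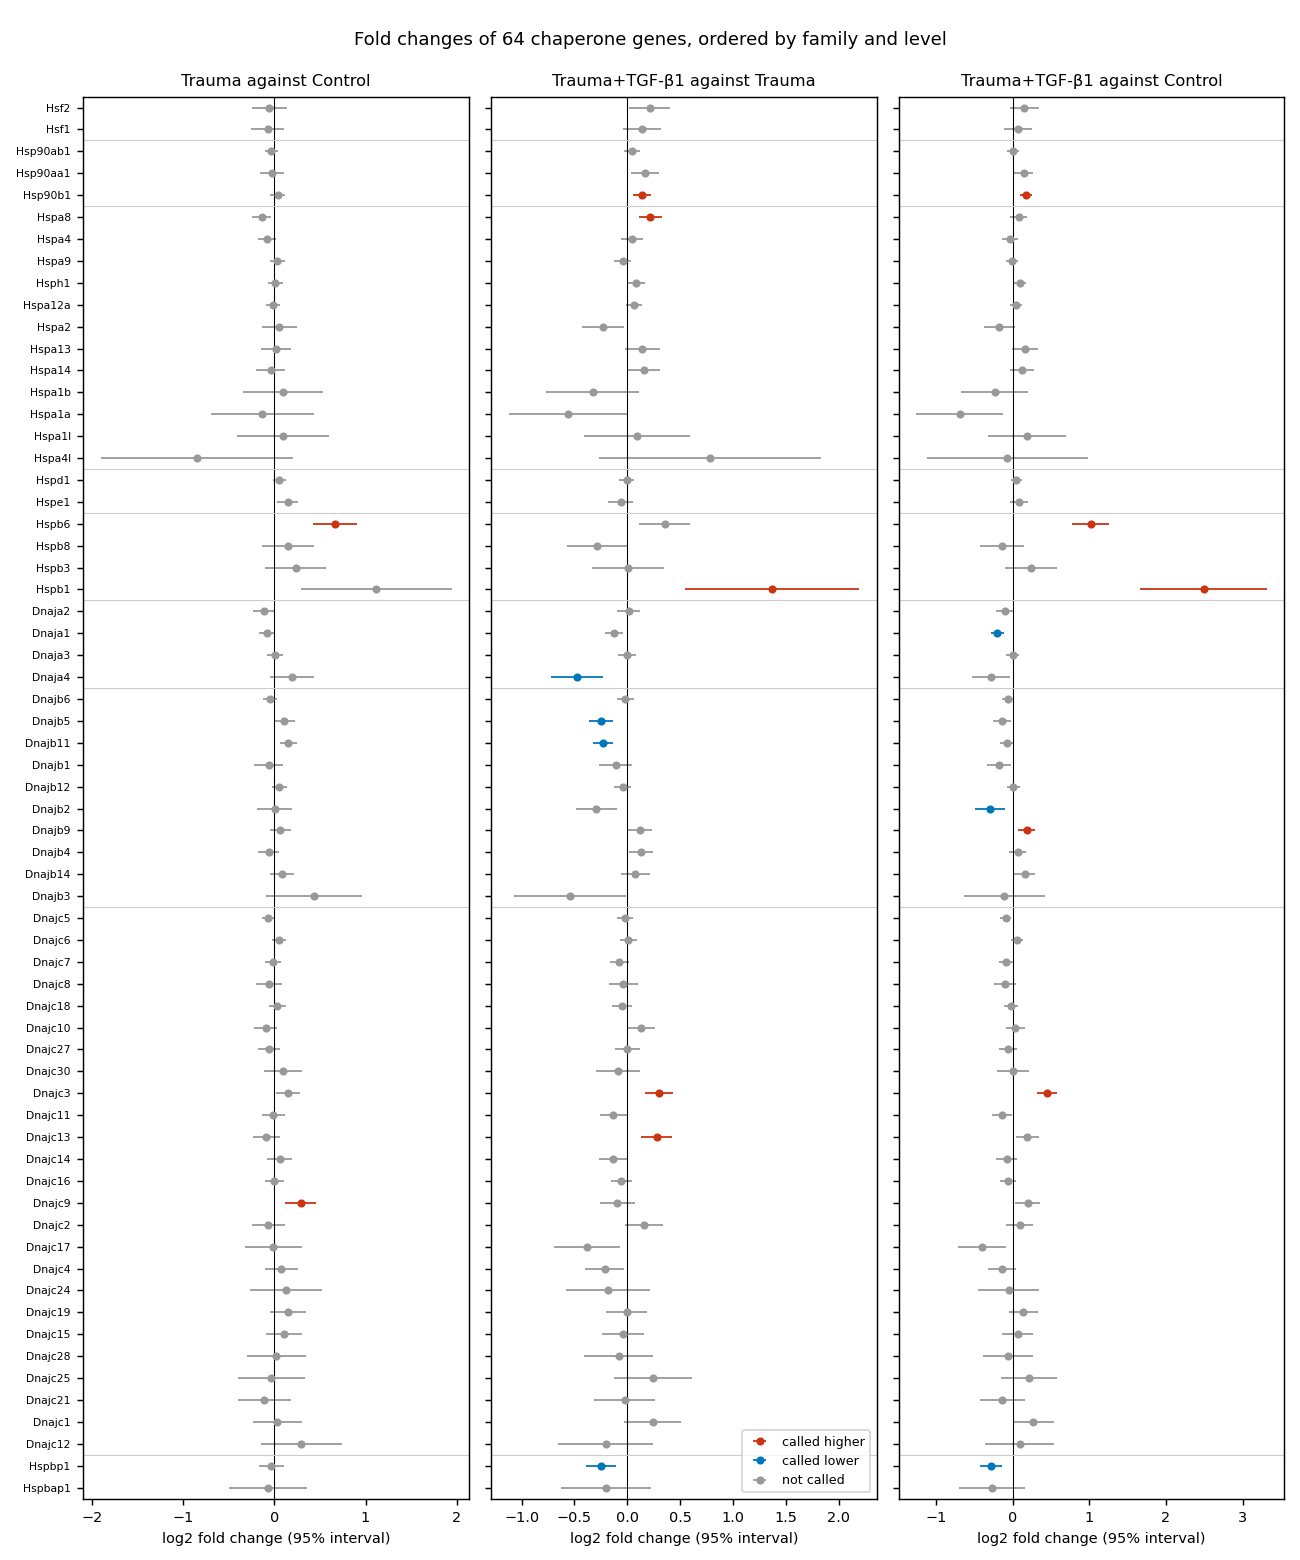
Log2 fold changes of 64 of the 65 tested chaperone genes (rows, ordered by family and then by level; grey lines part the families) in the 3 comparisons, with 95% intervals from limma; each panel has its own horizontal scale. Red points were called higher and blue points lower at an adjusted p of 0.05; Hspb1 and Hspb6 lie farthest to the right in Trauma+TGF-β1 against Control, at 2.49 and 1.02.

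Levels per gene length spread over 3 orders of magnitude. Hsp90ab1 (mean 610.5 FPKM), Hspa8 (383 FPKM) and Hsp90aa1 (256 FPKM) were above 100 FPKM, 26 members were between 10 and 100, and 36 between 0.5 and 10. The median of the 65 members was 8.42 FPKM, beside 5.15 FPKM for all genes tested. Summed over all 79 members the level was 2234 to 2389 FPKM in Control, 2207 to 2286 in Trauma and 2313 to 2333 with TGF-β1. Hsp90ab1, Hspa8 and Hsp90aa1 made up 53.3% to 56.2% of that sum in Control, 52.8% to 53.4% in Trauma and 55.0% to 56.3% with TGF-β1. The 45 J-domain genes contributed 23.0% to 24.9%, 24.4% to 24.8% and 22.7% to 23.2%, and the 7 small heat shock protein genes 0.363% to 0.478%, 0.502% to 0.648% and 0.610% to 0.705%. The genes with the largest fold changes thus came from the family with a small share of the chaperone transcripts.

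**Figure D2:**
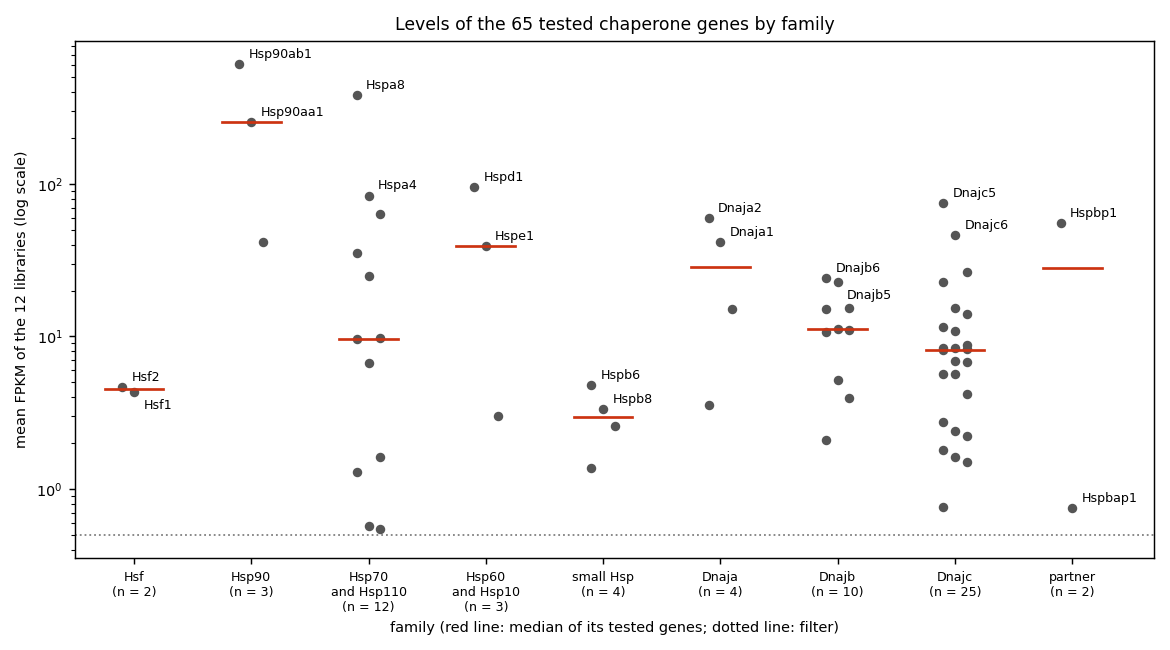
Mean FPKM of the 12 libraries (log scale) for each of the 65 tested chaperone genes by family, with the family median as a red line, the 0.5 FPKM filter as a dotted line and the top genes of each family named. Hsp90ab1, Hspa8 and Hsp90aa1 stand above 100 FPKM, while the small heat shock protein genes lie between 1.38 and 4.79 FPKM.

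Among the small heat shock proteins, Hspb1 and Hspb6 rose and Hspb3 and Hspb8 were not called. Hspb1 (ENSMUSG00000004951, chr5:135887919-135889563, plus strand, GRCm38) encodes Hsp27, a chaperone that also binds actin filaments. Hspb1 measured 0.252, 0.228, 1.11 and 0.315 FPKM without injury, 0.708, 0.723, 1.15 and 1.42 FPKM in Trauma and 3.12, 2.80, 2.76 and 2.00 FPKM with TGF-β1 added. All Trauma+TGF-β1 values lay above all Trauma values, and a single Control library, the third, lay inside the Trauma range. These are low levels, from 4 to 18 reads per library in Control, 12 to 26 in Trauma and 33 to 49 with TGF-β1. Hspb1 was 2.58-fold higher in Trauma+TGF-β1 than in Trauma (95% interval 1.46 to 4.58; log2 fold change 1.37, SE 0.38, limma adjusted p = 0.0368) and 5.61-fold higher than in Control (95% interval 3.16 to 9.94; log2 fold change 2.49, SE 0.38, limma adjusted p = 0.00161). Trauma against Control did not pass the test (log2 fold change 1.12, SE 0.38, limma adjusted p = 0.119), and passed without the third Control library (log2 fold change 1.55, limma adjusted p = 0.00646). The call against Trauma was lost on leaving out any of the 8 libraries of these groups (limma adjusted p = 0.0505 to 0.0941).

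Hspb6 (ENSMUSG00000036854, chr7:30552178-30555443, plus strand) encodes Hsp20, a small heat shock protein first known from muscle. Hspb6 measured 2.69, 3.45, 3.04 and 3.22 FPKM in Control cultures, 4.55, 4.61, 6.00 and 4.62 FPKM in scratched cultures and 6.94, 6.22, 5.43 and 6.71 FPKM where TGF-β1 was present. The Trauma libraries all exceeded the Control libraries, and the third Trauma library (6.00 FPKM) lay inside the Trauma+TGF-β1 range. Hspb6 was 1.58-fold higher in Trauma than in Control (log2 fold change 0.66, SE 0.11, limma adjusted p = 0.00429) and 2.02-fold higher in Trauma+TGF-β1 than in Control (log2 fold change 1.02, SE 0.11, limma adjusted p = 0.000171). Between Trauma+TGF-β1 and Trauma the difference missed the threshold (log2 fold change 0.35, SE 0.11, limma adjusted p = 0.0544). It passed in 8 of 26 alternative analyses, among them a correction for GC content or gene length. The others include leaving out Control library 1 (limma adjusted p = 0.0378), Trauma library 3 (log2 fold change 0.45, limma adjusted p = 0.0248) or Trauma+TGF-β1 library 3 (log2 fold change 0.42, limma adjusted p = 0.0353). Hspb8, which works with the exchange factor Bag3, gave log2 fold changes of 0.15 in Trauma against Control and -0.13 in Trauma+TGF-β1 against Control, and Hspb3, described in muscle, gave 0.23 and 0.24; these 4 comparisons gave limma adjusted p from 0.321 to 0.610. Hspb2, Hspb7 and Hspb9 stayed under the filter.

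Cryab, the small heat shock protein αB-crystallin, is not a member by its symbol and belongs to the list of family genes under other names. Cryab measured 8.26, 10.4, 10.2 and 10.3 FPKM in the 4 Control libraries, 13.1, 12.3, 14.6 and 12.7 FPKM after the scratch alone and 12.7, 12.7, 12.7 and 13.3 FPKM after the scratch with TGF-β1. It was upregulated in Trauma against Control (log2 fold change 0.44, SE 0.075, limma adjusted p = 0.00509) and in Trauma+TGF-β1 against Control (log2 fold change 0.41, limma adjusted p = 0.00435), with no call between the scratched groups (log2 fold change -0.030, limma adjusted p = 0.835). Astrocyte markers moved with these genes: 5 of 6 tested were called higher in Trauma against Control and 4 of 6 in Trauma+TGF-β1 against Control, while 1 was called higher and 1 lower in Trauma+TGF-β1 against Trauma. All 7 astrocyte markers were above 0 in every group, with Gfap at means of 47.7, 87.3 and 97.1 FPKM in Control, Trauma and Trauma+TGF-β1 and Gjb6 at 0.15, 0.17 and 0.22 FPKM. Their part in the small heat shock protein results was not tested. In the plot of these genes beside the astrocyte sum, the scratched groups overlap for Cryab and for the astrocyte sum and do not overlap for Hspb1. They also do not overlap for Aqp4, the astrocyte marker called higher with TGF-β1 (log2 fold change 0.32, limma adjusted p = 0.0178). Nor do they for Aldh1l1, the marker called lower (log2 fold change -0.50, limma adjusted p = 0.00430). The astrocyte sum, of which Gfap is the largest part, thus does not stand for each marker.

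**Figure D3:**
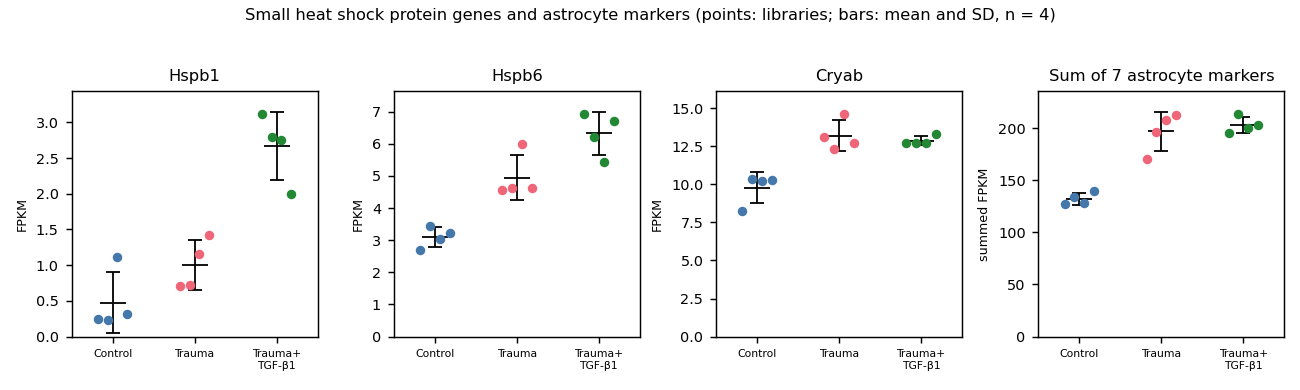
FPKM of Hspb1, Hspb6 and Cryab and summed FPKM of 7 astrocyte markers (vertical axes from 0) in the 4 libraries of each group; bars are mean and SD. Hspb1 goes from 0.228 to 1.11 FPKM in Control and 0.708 to 1.42 in Trauma to 2.00 to 3.12 with TGF-β1, while the astrocyte sum is 171 to 213 in Trauma and 195 to 214 with TGF-β1.

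Promoter sequences are shown for Hspb1 and Hspb6, which rose, and for Hspa1a, the classical heat-inducible Hsp70 gene, which was not called. They are the bases before the RefSeq start of each gene in GRCm38.p6, up to 250 and free of exons of the same strand in GENCODE, written 5′ to 3′ on the gene's strand. The table lists 2 starts for Hspb6, and the window of the other start, with no match, is not shown. The Hspb6 window shown lies inside the wider bounds that GENCODE gives that gene, and the 33 bases next to the start are left out of it. Capitals mark paired inverted units of the heat shock element bound by Hsf1 (GAANNTTC or TTCNNGAA, both strands, overlaps counted).
Hspb1, chr5:135887669-135887918, plus strand: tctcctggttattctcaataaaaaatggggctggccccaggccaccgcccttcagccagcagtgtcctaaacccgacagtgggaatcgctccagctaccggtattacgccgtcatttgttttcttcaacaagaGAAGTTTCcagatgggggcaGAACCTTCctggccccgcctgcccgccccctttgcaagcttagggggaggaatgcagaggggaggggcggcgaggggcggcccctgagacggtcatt
Hspb6, chr7:30553063-30553267, plus strand: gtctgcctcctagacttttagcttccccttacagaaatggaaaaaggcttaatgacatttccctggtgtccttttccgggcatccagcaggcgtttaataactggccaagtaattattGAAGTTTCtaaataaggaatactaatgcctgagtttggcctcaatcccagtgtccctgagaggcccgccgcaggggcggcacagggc
Hspa1a, chr17:34972157-34972406, minus strand: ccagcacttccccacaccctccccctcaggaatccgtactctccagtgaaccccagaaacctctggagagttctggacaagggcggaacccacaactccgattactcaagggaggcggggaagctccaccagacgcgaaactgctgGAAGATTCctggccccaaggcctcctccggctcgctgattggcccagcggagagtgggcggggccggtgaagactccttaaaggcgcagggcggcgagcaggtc
The matches begin 117 and 97 bases before the start of Hspb1, 120 bases before that of Hspb6 and 104 bases before that of Hspa1a. In the 250 bases before any start listed for a gene, such a match was present for 15 of the 62 members with a promoter in the table (24.2%), and for 3932 of all 27025 genes with one (14.5%). The stricter form with a further inverted unit was present for 3 members (4.84%: Dnajb6, Hspd1 and Hspe1, the latter pair sharing a divergent promoter) and for 0.514% of all genes. Besides the genes shown, the members with a match were Dnaja1, Dnaja4, Dnajb4, Dnajb6, Dnajc10, Dnajc27, Hsf5, Hspa1b, Hspb3, Hspd1, Hspe1 and Hsph1. Among the genes called, Hspb1 and Hspb6 with a match rose and Dnaja1 and Dnaja4 with a match fell, while Dnajc3, Dnajc9, Dnajc13, Dnajb2, Dnajb5, Dnajb9, Dnajb11, Hsp90b1 and Hspbp1 had none in their windows. Hspa8 has no promoter in the table used. A match describes letters in a window, not a bound site.

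The heat shock factors were not called in any comparison. Hsf1, the factor that drives the heat shock response, measured 4.39 ± 0.473 FPKM in Control, 4.12 ± 0.0786 FPKM in Trauma and 4.55 ± 0.435 FPKM with TGF-β1 (SD, n = 4), with log2 fold changes of -0.075, 95% interval -0.26 to 0.11 in Trauma against Control and of 0.14, 95% interval -0.044 to 0.32 in Trauma+TGF-β1 against Trauma. Hsf2, its partner in development, measured 4.59 ± 0.450, 4.37 ± 0.367 and 5.06 ± 0.424 FPKM, with limma adjusted p from 0.135 to 0.786. Hsf3, Hsf4 and Hsf5 stayed under the filter, with at most 29 reads in a library. A textbook list of 20 genes induced by Hsf1 on heat shock, which overlaps the members, had 2 genes called higher and 1 lower in Trauma against Control (Cryab and Serpinh1; Stip1), 2 and 2 in Trauma+TGF-β1 against Trauma (Hspa8 and Hspb1; Ahsa1 and Fkbp4), and 4 and 4 in Trauma+TGF-β1 against Control (Chordc1, Cryab, Hspb1 and Serpinh1; Ahsa1, Dnaja1, Fkbp4 and Stip1). This is 15%, 20% and 40% of the list, beside 5.82%, 12.3% and 16.3% of all genes, and its medians were -0.0075, -0.0065 and 0.057 on the log2 scale. Genes of the list that are not members were not followed in the alternative analyses.

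In the Hsp90 family the gene of the endoplasmic reticulum rose with TGF-β1. Hsp90b1 (ENSMUSG00000020048, chr10:86690209-86705509, minus strand) encodes Grp94, the Hsp90 of the endoplasmic reticulum. Hsp90b1 measured 38.3, 40.0, 39.8 and 41.2 FPKM without injury, 43.0, 40.9, 39.6 and 38.8 FPKM in Trauma and 45.8, 44.3, 43.2 and 45.0 FPKM with TGF-β1 added. The lowest Trauma+TGF-β1 library was above the highest Trauma and the highest Control library. The difference was small, 1.101-fold against Trauma (log2 fold change 0.14, SE 0.038, limma adjusted p = 0.0337) and 1.13-fold against Control (log2 fold change 0.18, SE 0.038, limma adjusted p = 0.00922). Leaving out Trauma+TGF-β1 library 1, 2 or 4 or Trauma library 2, 3 or 4 ended the first call (limma adjusted p = 0.0721 to 0.0927), and a correction for GC content ended both (limma adjusted p = 0.8288 and 0.520).

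The cytosolic Hsp90 genes were not called in the fit of all 12 libraries. Hsp90ab1, the constitutive isoform and the member with the highest level, measured 617 ± 23.9 FPKM in Control, 599 ± 11.4 FPKM in Trauma and 615 ± 12.6 FPKM with TGF-β1 (SD, n = 4), with log2 fold changes of -0.033, 95% interval -0.11 to 0.043 in Trauma against Control and 0.041, 95% interval -0.035 to 0.12 in Trauma+TGF-β1 against Trauma. Hsp90aa1, the inducible isoform, measured 286, 244, 229.9 and 240.5 FPKM in Control cultures, 251, 254, 236 and 233 FPKM in scratched cultures and 269, 276, 269.6 and 277 FPKM where TGF-β1 was present. Its Trauma+TGF-β1 libraries lay above all Trauma libraries, without passing the test (log2 fold change 0.17, SE 0.059, limma adjusted p = 0.0802), and the first Control library had the highest level of all 12. Without that library Hsp90aa1 was called higher in Trauma+TGF-β1 both against Trauma (log2 fold change 0.17, limma adjusted p = 0.00892) and against Control (log2 fold change 0.21, limma adjusted p = 0.00277).

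Of the Hsp70 and Hsp110 genes, 1 of 12 tested was called. Hspa8 (ENSMUSG00000015656, chr9:40800984-40810087, plus strand) encodes Hsc70, the constitutive Hsp70 that uncoats clathrin vesicles and serves chaperone-mediated autophagy. Hspa8 measured 421, 400.2, 362 and 378 FPKM in the 4 Control libraries, 344, 355, 351 and 356 FPKM after the scratch alone and 383, 406, 414 and 430.5 FPKM after the scratch with TGF-β1. All Trauma libraries lay below all libraries of the other groups, which overlapped each other. Hspa8 was 1.16-fold higher in Trauma+TGF-β1 than in Trauma (log2 fold change 0.22, SE 0.049, limma adjusted p = 0.0178). Trauma against Control missed the threshold (log2 fold change -0.14, SE 0.049, limma adjusted p = 0.130), and Trauma+TGF-β1 against Control gave a log2 fold change of 0.079, 95% interval -0.028 to 0.19. The call ended without Trauma+TGF-β1 library 2 or 4 (limma adjusted p = 0.0507 and 0.0547) and with the GC correction (limma adjusted p = 0.0540), under which the fall in Trauma against Control was called instead (log2 fold change -0.16, limma adjusted p = 0.0391).

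The inducible Hsp70 genes were low and were not called in the fit of all 12 libraries. Hspa1a and Hspa1b encode near-identical proteins, their promoter windows share 247 of 250 bases, and reads may be split or lost between them, so each value is uncertain. Hspa1a measured 1.23, 2.10, 1.76 and 1.18 FPKM without injury, 1.45, 1.33, 1.296 and 1.40 FPKM in Trauma and 1.44, 0.583, 1.15 and 0.653 FPKM with TGF-β1 added. Hspa1b had 1.41, 1.76, 1.43 and 2.08 FPKM in Control cultures, 1.56, 2.58, 1.84 and 1.28 FPKM in scratched cultures and 1.57, 1.51, 1.39 and 1.09 FPKM where TGF-β1 was present. The groups overlapped for both genes. In Trauma against Control, the log2 fold change was -0.13, 95% interval -0.70 to 0.43 for Hspa1a and 0.094, 95% interval -0.34 to 0.53 for Hspa1b, and in Trauma+TGF-β1 against Control -0.69, 95% interval -1.26 to -0.13 (limma adjusted p = 0.0908) and -0.23, 95% interval -0.67 to 0.20. Their summed level was 2.64 to 3.86 FPKM in Control, 2.69 to 3.91 in Trauma and 1.74 to 3.01 with TGF-β1. Without Trauma+TGF-β1 library 1, Hspa1a was called lower against Control (log2 fold change -0.90, limma adjusted p = 0.0329). A rise of the inducible Hsp70 genes at 24 h was not detected within these intervals.

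The other Hsp70 and Hsp110 genes were not called in the fit of all 12 libraries. Hspa9, the mitochondrial Hsp70, measured 63.8 ± 3.14, 64.9 ± 1.16 and 62.8 ± 2.05 FPKM in Control, Trauma and Trauma+TGF-β1 (SD, n = 4), with a log2 fold change of 0.034, 95% interval -0.050 to 0.12 in Trauma against Control. Hspa4 and Hsph1, exchange factors of the Hsp110 class, measured 86.8 ± 3.58, 81.5 ± 3.88 and 83.9 ± 4.36 FPKM and 34.5 ± 1.02, 34.5 ± 1.26 and 36.5 ± 1.12 FPKM. For Hsph1, which is heat-inducible, Trauma+TGF-β1 against Control gave 0.095, 95% interval 0.014 to 0.18 on the log2 scale (limma adjusted p = 0.104), and passed without the first Control library (log2 fold change 0.12, limma adjusted p = 0.0412). Hspa4l, a close relative of Hspa4, measured 0.683, 0.509, 0.599 and 0.677 FPKM in the 4 Control libraries, 0.160, 0.122, 0.863 and 0.329 FPKM after the scratch alone and 0.245, 0.592, 1.14 and 0.599 FPKM after the scratch with TGF-β1. Its libraries spread widely within the scratched groups, and its interval in Trauma against Control ran from -1.90 to 0.20. Hspa12a, Hspa14 and Hspa1l were not called either, and neither were Hspa2 and Hspa13 with all libraries. Hspa2 was called lower in Trauma+TGF-β1 against Control without the first Control library (log2 fold change -0.25, limma adjusted p = 0.0375). Hspa13 was called higher without Trauma+TGF-β1 library 3, against Trauma (log2 fold change 0.22, limma adjusted p = 0.0406) and against Control (log2 fold change 0.23, limma adjusted p = 0.0249). Hspa1l shared 71.9% of its exon bases with a gene on the opposite strand, and its reads cannot be assigned to it alone.

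The mitochondrial chaperonin was not called in any comparison of the fit of all 12 libraries. Quantile normalization called Hspd1 higher in Trauma+TGF-β1 against Control. Hspd1 (Hsp60) measured 93.7 ± 4.14 FPKM in Control, 96.6 ± 1.61 FPKM in Trauma and 96.0 ± 1.42 FPKM with TGF-β1 (SD, n = 4). Hspe1 (Hsp10), its lid, measured 38.0, 37.1, 38.1 and 35.8 FPKM without injury, 39.9, 42.5, 38.8 and 42.7 FPKM in Trauma and 38.3, 38.9, 36.2 and 43.6 FPKM with TGF-β1 added. Its Trauma libraries lay above all Control libraries without passing the test (log2 fold change 0.15, SE 0.054, limma adjusted p = 0.151). Among 9 members whose proteins work in mitochondria (Hspd1, Hspe1, Hspa9, Dnaja3, Dnajc11, Dnajc15, Dnajc19, Dnajc28 and Dnajc30), 0 were called in limma in any comparison, with 1 at an unadjusted p under 0.05 in each. Their medians were 0.055, -0.043 and 0.0095 on the log2 scale for the scratch, for TGF-β1 after it and for both against Control.

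The class A J-domain proteins, the closest relatives of the bacterial DnaJ, fell where they were called. Dnaja1 (ENSMUSG00000028410, chr4:40722150-40737149, plus strand) is a main cytosolic partner of Hspa8. Dnaja1 measured 43.6, 46.3, 43.0 and 45.4 FPKM in Control cultures, 42.5, 42.8, 39.3 and 43.0 FPKM in scratched cultures and 38.9, 39.8, 38.1 and 36.8 FPKM where TGF-β1 was present. The Trauma+TGF-β1 libraries lay below all Control libraries, with Trauma in between and overlapping Trauma+TGF-β1. Dnaja1 fell by 13% in Trauma+TGF-β1 against Control (log2 fold change -0.20, SE 0.040, limma adjusted p = 0.00630). This call ended with quantile normalization (limma adjusted p = 0.0545). Trauma+TGF-β1 against Trauma missed the threshold (limma adjusted p = 0.0643). It passed in 5 of 26 alternative analyses, among them a correction for GC content or gene length and leaving out Trauma library 3 (log2 fold change -0.15, limma adjusted p = 0.0386).

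Dnaja4 (ENSMUSG00000032285, chr9:54698873-54716315, plus strand) is a stress-inducible relative of Dnaja1. Dnaja4 measured 3.51, 4.06, 4.06 and 2.91 FPKM in the 4 Control libraries, 3.96, 4.22, 3.72 and 4.59 FPKM after the scratch alone and 3.33, 2.61, 2.91 and 2.91 FPKM after the scratch with TGF-β1. Each Trauma+TGF-β1 library was below each Trauma library, while both groups overlapped Control. Dnaja4 fell by 28.0% in Trauma+TGF-β1 against Trauma (log2 fold change -0.47, SE 0.11, limma adjusted p = 0.0218), a call that ended without Trauma+TGF-β1 library 2 or 4 or Trauma library 2 or 4 (limma adjusted p = 0.0559 to 0.0672). Of its exon bases, 44.1% are shared with Wdr61 on the opposite strand, and counting by strand is not given in the sources used here, so that their reads cannot be told apart there. Wdr61 itself changed by -0.11 on the log2 scale in that comparison, with limma adjusted p = 0.325. Without Control library 4, Dnaja4 was also called lower against Control (log2 fold change -0.38, limma adjusted p = 0.0316). Dnaja2 and the mitochondrial Dnaja3 were not called with all libraries, with log2 fold changes of -0.11, 95% interval -0.22 to 0.0052 and -0.0013, 95% interval -0.088 to 0.086 in Trauma+TGF-β1 against Control. Dnaja2 was called lower there without the first Control library (log2 fold change -0.15, limma adjusted p = 0.0365) and with the GC correction.

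Class B gave calls in both directions. Dnajb5 (ENSMUSG00000036052, chr4:42949814-42959425, plus strand) is a relative of Dnajb1 that binds class II histone deacetylases. Dnajb5 measured 21.8, 23.1, 24.0 and 23.7 FPKM without injury, 24.8, 25.1, 25.3 and 23.9 FPKM in Trauma and 21.4, 19.1, 22.8 and 20.1 FPKM with TGF-β1 added. Trauma libraries all exceeded those with TGF-β1, and the gene fell by 15.7% (log2 fold change -0.25, SE 0.053, limma adjusted p = 0.0153). The GC correction ended the call (limma adjusted p = 0.0560). Against Control the gene was called lower without Control library 1 (log2 fold change -0.17, limma adjusted p = 0.0463) or Trauma+TGF-β1 library 3 (log2 fold change -0.18, limma adjusted p = 0.0261), and not with all libraries. Dnajb11 (ENSMUSG00000004460, chr16:22857845-22879634, plus strand) is a J-domain partner of Hsp70 in the endoplasmic reticulum. Dnajb11 measured 14.6, 15.4, 14.9 and 16.1 FPKM in Control cultures, 16.4, 17.3, 17.4 and 16.4 FPKM in scratched cultures and 14.3, 13.8, 15.01 and 14.2 FPKM where TGF-β1 was present. Trauma stood above both other groups, whose values overlapped, and Dnajb11 fell by 14.8% in Trauma+TGF-β1 against Trauma (log2 fold change -0.23, SE 0.043, limma adjusted p = 0.00990), while Trauma against Control missed the threshold (log2 fold change 0.15, SE 0.043, limma adjusted p = 0.0607), and passed without Control library 4 (log2 fold change 0.18, limma adjusted p = 0.0435).

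Dnajb2 (ENSMUSG00000026203, chr1:75236406-75245692, plus strand) is a neuronal J-domain protein that passes clients to the proteasome. Dnajb2 measured 9.65, 12.4, 13.6 and 11.6 FPKM in the 4 Control libraries, 12.3, 11.3, 10.9 and 12.2 FPKM after the scratch alone and 10.3, 9.03, 9.47 and 9.26 FPKM after the scratch with TGF-β1. Its first Control library fell inside the Trauma+TGF-β1 range, and the other 3 lay above it. Dnajb2 was called lower in Trauma+TGF-β1 against Control (log2 fold change -0.29, SE 0.090, limma adjusted p = 0.0460), a call kept in 9 and lost in 17 of 26 alternative analyses (limma adjusted p = 0.00272 to 0.125), among them leaving out Control library 2, 3 or 4, Trauma+TGF-β1 library 2, 3 or 4 or any Trauma library. Against Trauma it was called lower without Control library 1 (log2 fold change -0.29, limma adjusted p = 0.0108) or 3 (log2 fold change -0.29, limma adjusted p = 0.0349), and not with all libraries (limma adjusted p = 0.0532). Dnajb9 (ENSMUSG00000014905, chr12:44205559-44210326, minus strand) works in the endoplasmic reticulum, where it keeps the stress sensor Ire1 in check. Dnajb9 measured 9.89, 9.67, 10.8 and 10.0 FPKM without injury, 10.7, 10.4, 10.7 and 9.95 FPKM in Trauma and 11.7, 11.5, 10.4 and 11.9 FPKM with TGF-β1 added. It was called higher in Trauma+TGF-β1 against Control by 1.14-fold, although the groups overlapped (log2 fold change 0.18, SE 0.052, limma adjusted p = 0.0337), and the call ended with the GC correction (limma adjusted p = 0.624) and without Control library 2 or 4 or Trauma+TGF-β1 library 1, 2 or 4 (limma adjusted p = 0.0680 to 0.0948).

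Dnajb1, the main heat-inducible J-domain protein (Hsp40), was not called: it measured 15.96 ± 0.747 FPKM in Control, 15.2 ± 1.55 FPKM in Trauma and 14.03 ± 0.893 FPKM with TGF-β1 (SD, n = 4), with a log2 fold change of -0.064, 95% interval -0.22 to 0.094 in Trauma against Control and -0.17, 95% interval -0.33 to -0.016 in Trauma+TGF-β1 against Control. Dnajb6, which suppresses polyglutamine aggregation and is the class B member with the highest level, measured 24.8 ± 0.287, 23.8 ± 0.933 and 23.5 ± 0.653 FPKM. In a list of 6 J-domain genes whose proteins bind misfolded or polyglutamine proteins, 5 were tested and 1 (Dnajb2) was called, in Trauma+TGF-β1 against Control (20% of the 5, beside 16.3% of all genes). Dnajb3, Dnajb4, Dnajb12 and Dnajb14 were not called in any comparison.

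Among the 25 tested class C genes, which share the J domain and little else, 3 were called. Dnajc3 (ENSMUSG00000022136, chr14:118937976-118981697, plus strand) encodes P58IPK, a chaperone of the endoplasmic reticulum that inhibits eIF2α kinases. Dnajc3 measured 8.19, 8.04, 6.97 and 7.39 FPKM in Control cultures, 8.27, 8.25, 8.00 and 9.17 FPKM in scratched cultures and 10.4, 10.6, 9.81 and 10.7 FPKM where TGF-β1 was present. The Trauma+TGF-β1 libraries lay above all others, and Trauma overlapped Control. Dnajc3 rose 1.23-fold against Trauma (log2 fold change 0.30, SE 0.062, limma adjusted p = 0.0134) and 1.37-fold against Control (log2 fold change 0.45, SE 0.062, limma adjusted p = 0.000844), and the GC correction ended the first call (limma adjusted p = 0.0630). Together with Hspa13, Dnajc1 and Dnajc10, the genes Hsp90b1, Dnajb9, Dnajb11 and Dnajc3 form a chosen list of 7 endoplasmic reticulum chaperones. The list need not hold every such member. In Trauma+TGF-β1 against Trauma 2 of the 7 were higher and 1 lower (median log2 fold change 0.14), in Trauma+TGF-β1 against Control 3 were higher (median 0.18), and in Trauma against Control 0 were called in limma, with 2 at an unadjusted p under 0.05. Over all genes, 4.64% were higher and 7.63% lower with TGF-β1 against Trauma, and 6.85% were higher against Control.

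Dnajc13 (ENSMUSG00000032560, chr9:104151282-104262930, minus strand) encodes Rme-8, a J-domain protein of endosomes. Dnajc13 measured 9.01, 7.71, 7.61 and 8.34 FPKM in the 4 Control libraries, 7.67, 7.72, 8.01 and 7.06 FPKM after the scratch alone and 9.09, 10.2, 8.78 and 8.96 FPKM after the scratch with TGF-β1. All Trauma+TGF-β1 libraries were above all Trauma libraries, for a rise of 1.21-fold (log2 fold change 0.28, SE 0.068, limma adjusted p = 0.0228). The call ended with a correction for GC content or gene length (limma adjusted p = 0.0652 and 0.0680) and without Trauma+TGF-β1 library 2 or Trauma library 2 or 4 (limma adjusted p = 0.0536 to 0.0698). Against Control it was called higher without the first Control library (log2 fold change 0.24, limma adjusted p = 0.0217), and not with all libraries. Dnajc9 (ENSMUSG00000021811, chr14:20384638-20388910, minus strand) handles histones H3 and H4 during replication and transcription. Dnajc9 measured 5.55, 6.01, 6.82 and 6.50 FPKM without injury, 7.19, 7.93, 7.66 and 7.43 FPKM in Trauma and 6.24, 7.41, 7.64 and 6.99 FPKM with TGF-β1 added. All Trauma libraries were above all Control libraries, by 1.22-fold on average (log2 fold change 0.29, SE 0.076, limma adjusted p = 0.0478). This call was kept in 8 and lost in 18 of 26 alternative analyses (limma adjusted p = 0.0208 to 0.126), among them leaving out Control library 1, 2 or 4, Trauma+TGF-β1 library 2, 3 or 4 or any Trauma library. Without Trauma+TGF-β1 library 1, Dnajc9 was also called higher in Trauma+TGF-β1 against Control (log2 fold change 0.25, limma adjusted p = 0.0440). Of 5 markers of dividing progenitors, Mki67 and Top2a were called higher in Trauma against Control. Their means were 0.25 and 0.82 FPKM and 0.61 and 1.76 FPKM in Control and Trauma. Pax6, Eomes and Hes5 were not called there, with log2 fold changes of 0.090, 0.030 and -0.30. The part of dividing cells in the Dnajc9 result was not tested.

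The J-domain genes of synaptic and coated vesicles were not called in the fit of all 12 libraries. Dnajc5, the cysteine string protein that guards SNARE proteins on synaptic vesicles, measured 77.8 ± 1.97 FPKM in Control, 73.7 ± 1.45 FPKM in Trauma and 72.5 ± 2.72 FPKM with TGF-β1 (SD, n = 4), and its Control libraries lay above all others without passing the test (log2 fold change -0.090, SE 0.033, limma adjusted p = 0.0888 in Trauma+TGF-β1 against Control). Dnajc6, the neuronal auxilin that recruits Hspa8 to clathrin coats, measured 45.5 ± 1.33, 46.8 ± 1.37 and 47.0 ± 1.62 FPKM, with log2 fold changes of 0.049, 95% interval -0.028 to 0.13 and 0.011, 95% interval -0.067 to 0.089 in Trauma against Control and Trauma+TGF-β1 against Trauma. With Gak, the other auxilin, 3 genes of this list were tested. In the fit of all 12 libraries, 0 were called in limma in any comparison. In Trauma against Control and in Trauma+TGF-β1 against Trauma, 0 had an unadjusted p under 0.05. Among the alternatives, Dnajc5 was called lower in Trauma+TGF-β1 against Control with a correction for GC content or gene length. With the GC correction and the replicate block it was also lower in Trauma against Control. Quantile normalization called Dnajc6 higher in Trauma+TGF-β1 against Control. The remaining class C genes that were tested were not called with all libraries: Dnajc1, Dnajc2, Dnajc4, Dnajc7, Dnajc8, Dnajc10 to Dnajc12, Dnajc14 to Dnajc19, Dnajc21, Dnajc24, Dnajc25, Dnajc27, Dnajc28 and Dnajc30. Of these, Dnajc11 was called lower in Trauma+TGF-β1 against Control without the first Control library (log2 fold change -0.19, limma adjusted p = 0.0167), Dnajc7 lower without Trauma+TGF-β1 library 3 (log2 fold change -0.13, limma adjusted p = 0.0448), and Dnajc25 higher without that same library, against Trauma (log2 fold change 0.43, limma adjusted p = 0.0413) and against Control (log2 fold change 0.39, limma adjusted p = 0.0455).

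Hspbp1 (ENSMUSG00000063802, chr7:4660521-4685068, minus strand), an exchange factor that releases nucleotide from Hsp70 and blocks the ubiquitin ligase Stub1, is a binding partner with a heat shock symbol. Hspbp1 measured 54.9, 62.9, 61.9 and 58.6 FPKM in Control cultures, 57.9, 58.5, 55.3 and 59.3 FPKM in scratched cultures and 53.7, 43.4, 46.1 and 51.2 FPKM where TGF-β1 was present. Every Trauma+TGF-β1 library was below every library of the other groups. Hspbp1 fell by 15.9% against Trauma (log2 fold change -0.25, SE 0.064, limma adjusted p = 0.0282) and fell by 17.8% against Control (log2 fold change -0.28, SE 0.064, limma adjusted p = 0.0125). The GC correction ended both calls (limma adjusted p = 0.574 and 0.143), and the call against Trauma also ended without Trauma+TGF-β1 library 2 or 3 or Trauma library 1, 2 or 4 (limma adjusted p = 0.0594 to 0.0751). Hspbap1, which binds Hspb1, was not called.

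**Figure D4:**
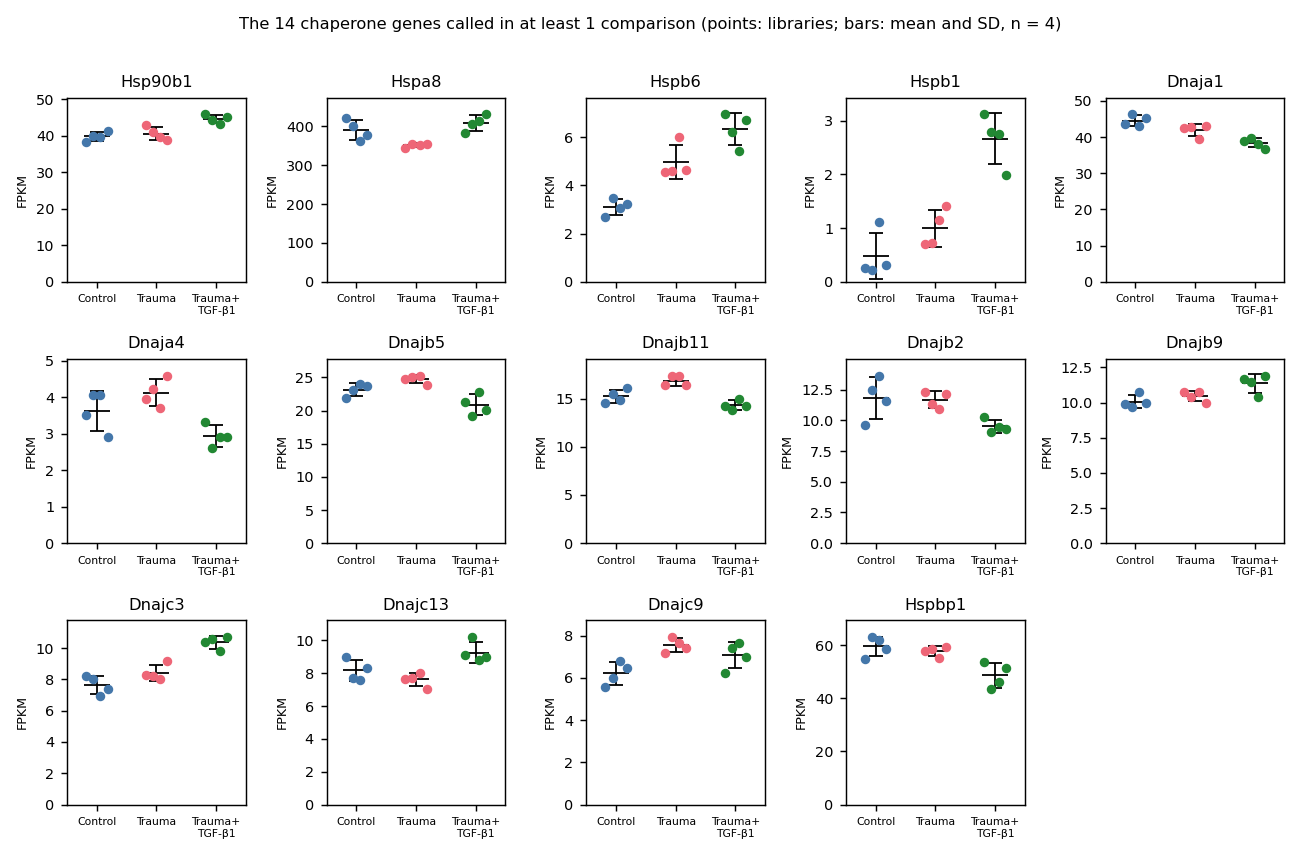
FPKM (vertical axes from 0) of the 14 chaperone genes called in at least 1 comparison, 1 panel per gene, with the 4 libraries of each group as points and mean and SD as bars. Hspb1 and Hspb6 climb from Control to Trauma+TGF-β1, Hspa8 is lowest in Trauma, and Hspbp1, Dnaja4, Dnajb5 and Dnajb11 are lower in every Trauma+TGF-β1 library than in any Trauma library.

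The 14 members under the filter were at or near 0. Dnajc5b and Dnajc5g, the testis paralogs of Dnajc5, had 0 reads in all 12 libraries, which allows up to 3 reads in each. Hsf3, Hspb7 and Dnajc22 had at most 3 reads in any library, and Hspb2 and Dnajb7 at most 4. Hsf2bp had at most 7 reads in any library, Dnajb8 10, Hspb9 11 and Hsf5 18. Hspa12b, Dnajb13 and Hsf4 reached 23, 23 and 29 reads in a library, and Hsf4 had the highest mean of these genes, 0.392 FPKM. No comparison was made for them.

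Partners of these chaperones were counted in lists of their own, made by function but with earlier results of these data known. Calls of these genes were not followed in the alternative analyses, the GC correction among them. Of 32 co-chaperones and exchange factors, 0 were higher and 2 lower in Trauma against Control (Grpel2 and Stip1), 2 higher (Fnip1 and Sugt1) and 5 lower (Ahsa1, Cdc37, Fkbp4, Grpel1 and Nudc) in Trauma+TGF-β1 against Trauma, and 3 higher (Chordc1, Fnip1 and Sugt1) and 7 lower (Ahsa1, Bag1, Fkbp4, Grpel2, Nudc, Stip1 and Stub1) in Trauma+TGF-β1 against Control. This is 6.25%, 21.9% and 31.3% of the list, beside the 5.82%, 12.3% and 16.3% of all genes, and the medians were -0.030, -0.011 and -0.066 on the log2 scale. Fkbp4, an Hsp90 co-chaperone of steroid receptors, measured 85.1, 97.2, 96.2 and 89.2 FPKM in the 4 Control libraries, 94.1, 90.0, 86.5 and 85.3 FPKM after the scratch alone and 74.0, 65.6, 76.7 and 68.5 FPKM after the scratch with TGF-β1. All its Trauma+TGF-β1 values were below all others (log2 fold change -0.32 against Trauma, limma adjusted p = 0.00882). Stub1, the ubiquitin ligase CHIP that is blocked by Hspbp1, fell in Trauma+TGF-β1 against Control (means 20.9 and 28.9 FPKM, log2 fold change -0.44, SE 0.12, limma adjusted p = 0.0288).

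The cytosolic chaperonin and its prefoldin partners, which fold tubulin and actin, gave lower calls and no higher ones. Of 14 TRiC and prefoldin subunits, 0 were called in Trauma against Control in limma, with 0 at an unadjusted p under 0.05, 5 were lower and 0 higher in Trauma+TGF-β1 against Trauma (Cct2, Cct7, Pfdn1, Pfdn2 and Pfdn6), and 3 were lower and 0 higher in Trauma+TGF-β1 against Control (Cct2, Cct7 and Pfdn6). The genes called lower are 35.7% and 21.4% of the list, beside 7.63% and 9.46% of all genes, and the medians were 0.014, -0.064 and -0.069 on the log2 scale. Whether these calls hold after the GC correction or without single libraries was not examined. Pfdn6 measured 14.7, 24.7, 24.9 and 23.7 FPKM without injury, 24.2, 25.4, 22.7 and 28.5 FPKM in Trauma and 11.8, 11.0, 12.4 and 10.7 FPKM with TGF-β1 added. Its Trauma+TGF-β1 libraries lay below all libraries of the other groups (log2 fold change -1.12, SE 0.15, limma adjusted p = 0.00289 against Trauma). Of 9 tested heat shock and J-domain family genes under other symbols, Cryab and Serpinh1, the collagen chaperone Hsp47, were higher in Trauma and in Trauma+TGF-β1 against Control. Sec63, a J-domain protein of the translocon, was higher in Trauma+TGF-β1 against Trauma and also against Control. No gene of this list was called lower. In all, 22.2%, 22.2% and 33.3% of the list were called, beside 5.82%, 12.3% and 16.3% of all genes.

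Fold changes moved with the GC content of the transcripts. Across the 65 members, Spearman's rho between GC content and log2 fold change was 0.24 in Trauma against Control, -0.44 in Trauma+TGF-β1 against Trauma and -0.38 in Trauma+TGF-β1 against Control, and over 14699 genes it was 0.088, -0.47 and -0.36. With gene length in place of GC content, rho across the members was -0.49, 0.38 and 0.084 in these comparisons. Over all 15016 genes tested it was -0.089, 0.22 and 0.15. These are descriptions across genes, which are not independent and share their libraries. The 5 members called higher in Trauma+TGF-β1 against Trauma had a median GC content of 45.3% and the 4 called lower of 52.5%, while Hspb1 (61.7%) and Hspb6 (54.9%) rose with a high GC content. After a loess correction of each library for GC content, 11 of the 19 calls of members were lost. Over all genes, the share called went from 5.82% to 8.49% in Trauma against Control. It went from 12.3% to 5.57% in Trauma+TGF-β1 against Trauma and from 16.3% to 13.7% in Trauma+TGF-β1 against Control. The calls of Hspb6 in Trauma against Control, of Hspb1, Dnaja4 and Dnajb11 in Trauma+TGF-β1 against Trauma, and of Hspb1, Hspb6, Dnajc3 and Dnaja1 in Trauma+TGF-β1 against Control were kept. Whether the GC and length trends arose in the libraries or in the cells was not tested.

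**Figure D5:**
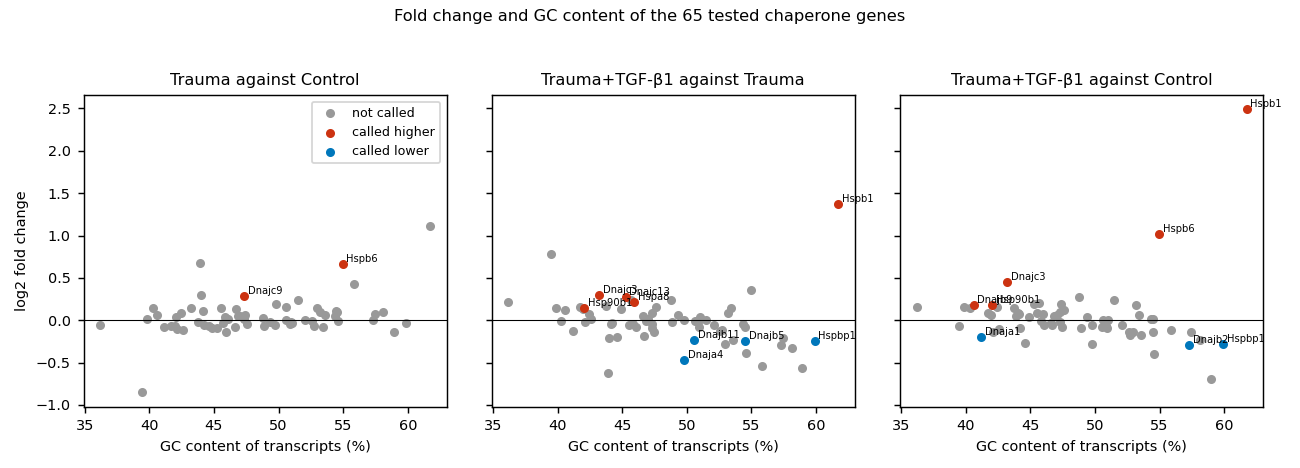
Log2 fold change against the GC content of the transcripts (%) for the 65 tested chaperone genes in the 3 comparisons, with called genes in red (higher) and blue (lower). Points drift downward with GC content in both comparisons of Trauma+TGF-β1 (rho -0.44 and -0.38), and Hspb1 and Hspb6 stand above the drift.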

How the data were processed

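RNA of 12 libraries was compared, 4 in each of 3 groups taken from the labels. The methods speak of 6 samples, while the table holds 12 libraries. The authors aligned paired reads with HISAT2 2.0.5, counted them per gene with featureCounts, calculated FPKM from the counts and the gene length, and deposited both the FPKM and the gene length in base pairs (other). The labels name mm10, and the settings for strand are not given in the sources used here. The test on counts that the authors used was left out, since the deposited values are FPKM. FPKM times gene length gave whole reads (tolerance 0.05) for nearly all values, and these recovered reads served voom as an alternative. Replicates are labelled only by number.

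Median-of-ratios factors (0.999 to 1.01) scaled the FPKM, and log2 was taken after adding 0.1, so that fold changes of low genes are understated. The 15016 genes with a mean of at least 0.5 FPKM were tested in limma 3.58.1 (R 4.3.3) in a fit of all 12 libraries with a trend, with Benjamini-Hochberg adjustment over all tested genes of a comparison and a threshold of 0.05. The procedure was tested on simulated data. Folds and percent changes are antilogs of the fitted log2 fold changes. The members, gene lists and tests were chosen with earlier results of these data known. Named were all called members, a set of well-known chaperones whatever they did, the member with the highest level of each family, and called genes of the lists. Hspb3, Dnaja2, Dnaja3 and Wdr61 were added after their values were seen. Results for some single genes, which remain in the counts, are not reported here. Intervals cover 95%. Depth limits genes with few reads, and zero counts allow up to 3 reads. Promoters came from RefSeq tables of GRCm38.p6 and gene structure from GENCODE M21. Python 3.11.15 with pandas 2.3.3, numpy 2.4.6, scipy 1.17.1 and matplotlib 3.10.9 was used for tables and plots. Alternatives were pseudocounts of 1 and 0.01, a filter at 1 FPKM or none, quantile normalization, the deposited FPKM unscaled, eBayes without a trend, a fit of the compared groups alone, the replicate number as a block, loess corrections (span 0.3) for gene length and for GC content with and without that block, voom, protein-coding genes alone, and each library left out in turn.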

Additional observations from a re-analysis of the deposited data

Results flagged for a closer look

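In 96 groups of 4 values of the named members, 5 held a library whose gap to the nearest of the others was large for the range of the group. About 1 in 20 such groups, here 4.8, is picked by chance. Hspb1 in the third Control library measured 1.11 FPKM, with the other Control libraries at 0.228 to 0.315 FPKM. Hspb6 in the third Trauma library measured 6.00 FPKM, with the others at 4.55 to 4.62 FPKM. Hspb8 in the first Trauma library measured 3.02 FPKM, with the others at 3.83 to 3.94 FPKM. Dnaja1 in the third Trauma library measured 39.3 FPKM, with the others at 42.5 to 43.0 FPKM. Dnajb6 in the second Control library measured 25.2 FPKM, with the others at 24.6 to 24.7 FPKM.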

How the results depend on the processing

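Of 19 calls of members, 5 were kept in all 26 alternatives: Hspb6 in Trauma against Control, Dnajb11 in Trauma+TGF-β1 against Trauma, and Hspb1, Hspb6 and Dnajc3 in Trauma+TGF-β1 against Control. No call turned its direction. In Trauma against Control, 2 members were called, and 1 was called with FPKM as deposited, eBayes without a trend, a fit of the compared groups alone, a gene length correction, no filter or quantile normalization. With a GC correction and the replicate block the number was 4, and leaving out a library gave 1 to 3. The median of 0.017 became -0.0047 with a GC correction, with or without the block (leaving out a library, 0.00996 to 0.0209). In Trauma+TGF-β1 against Trauma, 9 members were called, against 5 with a GC correction, 3 with a GC correction and the replicate block, 5 with no filter and 3 to 13 on leaving out a library (3 without Trauma+TGF-β1 library 2, 13 without Control library 1). The median of -0.021 became 0.015 with quantile normalization (leaving out a library, -0.038 to -0.0076). In Trauma+TGF-β1 against Control, 8 members were called, and 6 to 15 on leaving out a library (15 without Control library 1). Quantile normalization gave 10 higher and 0 lower in place of 5 and 3. Over all genes it gave 1131 higher and 917 lower in place of 1029 and 1420. The median of 0.0081 became -0.054 with a GC correction, with or without the block, and -0.018 to 0.015 on leaving out a library (-0.018 without Control library 4). The cause of these shifts was not tested. Over all genes, no filter gave 575, 987 and 1692 calls in place of 874, 1842 and 2449. A GC correction called 8.49%, 5.57% and 13.7% of all genes, and 9.16%, 5.03% and 13.9% with the replicate block. In Trauma+TGF-β1 against Trauma, 4.32% of all genes were called without Trauma+TGF-β1 library 2 and 17.0% without Control library 1. Correlations of the deviations from the group means ran from -0.0088 to 0.0762 for same-numbered libraries. For libraries of different numbers they ran from -0.0912 to 0.0733. All are weak and the ranges overlap, so whether the numbers pair the libraries cannot be told from them. The replicate block gave 2, 7 and 8 members. Markers and genes of the lists that are not members were not followed in the alternatives. Levels of rare members are limited by few reads.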
